A study of Mus musculus with 8 samples.

Results

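The 84 genes for the proteins of the cytosolic ribosome were examined in brown adipose tissue, a fat depot that burns fuel for heat, of mice, out of 22552 genes in the expression table. They were chosen by name, as symbols of the form Rpl or Rps followed by a number, together with the P stalk genes Rplp0, Rplp1 and Rplp2 and the gene Rpsa, and without the kinase genes whose symbols start with Rps6k. The name rule took 51 large-subunit and 33 small-subunit genes, tissue-restricted relatives such as Rpl3l included. Among the genes it did not match were Fau, whose product is cut into a ubiquitin-like part and a ribosomal protein, Rpl36al and the small-subunit scaffold gene Gnb2l1.

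The Null mice carried mmu-mir-193b -/- and so lacked mir-193b with its clustered neighbour mir-365-1, and the WT mice carried mmu-mir-193b +/+. Both were 2 months old and of the strain given as 129SV::FVB/N::C57BL/6. According to the labels, the floxed allele was deleted with MMTV-Cre and the transgene was then bred out, so the deletion is not limited to fat cells. Poly(A) RNA of 3 Null and 3 WT brown fat samples was sequenced, and the authors combined the 3 libraries of a genotype into a single FPKM value per gene, a read-fragment count scaled by transcript length and library size. These values are called the Null pool and the WT pool. With no replicate values there is no SD, no n and no test behind any difference given here, and the depth of the libraries is unknown. The columns summed to 590327 FPKM in the Null pool and 508701 FPKM in the WT pool. All 12 brown fat markers were detected, and they were split in direction, with 6 above WT in the Null pool and 6 below. Ucp1, which uncouples respiration to make heat, was at 2487 FPKM in the Null pool and 3016 FPKM in the WT pool. Elovl3 was also lower, at 17.5 FPKM in the Null pool and 88.3 FPKM in the WT pool. Cox7a1 was higher, at 5343 FPKM in the Null pool and 2634 FPKM in the WT pool.

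A ribosome joins a small subunit, which decodes the mRNA, to a large subunit, which forms the peptide bond. Each subunit is built on ribosomal RNA with a set of proteins that are present, outside the P stalk, in a single copy each. The mRNAs of these proteins are therefore often read as a group that should be present at like levels. In mammals many of them begin with a 5′ terminal oligopyrimidine stretch, an uninterrupted run of C and T after an initial C, through which growth signals from the kinase mTOR and the RNA-binding protein LARP1 set their translation. The genes have also left many processed pseudogenes in mammalian genomes, near copies of the mRNA that can take up or cancel short reads.

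The start regions of the genes are shown because levels in the family ranged from very low to abundant, and the start region is where many of the genes carry a like sequence signal. RefSeq start sites of GRCm38.p6, a later build than the mm9 of the expression data, were available for 63 of the 84 genes, with 75 entries in all. Each line gives the 30 bases before and the 30 bases from the annotated start, 5′ to 3′ on the strand of the gene. Capitals mark the longest run of at least 6 bases that opens with C and holds only C and T, beginning between 10 bases before and 20 bases after the start. The first 5 genes, among them Rpl13a at 270 FPKM in the Null pool and 101 FPKM in the WT pool, are abundant or had high ratios of Null to WT, the next 4 are low in both pools though they carry the run, and the last 3 have no such run.
Rplp2, chr7:141447621-141447680, plus strand: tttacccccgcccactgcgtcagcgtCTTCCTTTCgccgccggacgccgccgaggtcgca
Rpl13a, chr7:45128716-45128775, minus strand: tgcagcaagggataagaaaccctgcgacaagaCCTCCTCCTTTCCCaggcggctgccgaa
Rpl14, chr9:120571487-120571546, plus strand: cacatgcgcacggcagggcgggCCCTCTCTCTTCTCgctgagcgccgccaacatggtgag
Rps18, chr17:33955636-33955695, minus strand: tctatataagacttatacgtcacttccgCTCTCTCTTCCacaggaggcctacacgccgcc
Rps10, chr17:27635215-27635274, minus strand: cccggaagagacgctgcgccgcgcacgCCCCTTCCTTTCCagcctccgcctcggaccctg
Rpl35, chr2:39005102-39005161, minus strand: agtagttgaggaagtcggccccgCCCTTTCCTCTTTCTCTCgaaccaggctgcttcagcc
Rpl28, chr7:4792935-4792994, plus strand: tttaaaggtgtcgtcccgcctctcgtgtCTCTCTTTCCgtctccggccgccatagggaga
Rpl11, chr4:136053364-136053423, minus strand: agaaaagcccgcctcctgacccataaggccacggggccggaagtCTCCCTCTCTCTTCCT
Rps6, chr4:86857338-86857397, minus strand: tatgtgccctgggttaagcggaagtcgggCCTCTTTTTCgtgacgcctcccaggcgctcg
Rps15, chr10:80292401-80292460, plus strand: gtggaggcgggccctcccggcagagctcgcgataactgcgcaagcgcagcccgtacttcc
Rpl10, chrX:74270786-74270845, plus strand: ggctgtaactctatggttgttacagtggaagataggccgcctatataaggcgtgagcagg
Rpl3l, chr17:24727796-24727855, plus strand: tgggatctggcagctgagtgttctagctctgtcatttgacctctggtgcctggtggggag

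The pyrimidine run was found in 40 of the 75 start regions of ribosomal protein genes (53.3%), against 8388 of 32851 start regions over all genes (25.5%). It was as frequent among low genes as among abundant ones. The run stood in 8 of 15 entries (53.3%) of genes whose mean of both pools was 100 FPKM or more, in 17 of 32 (53.1%) at 10 to 100 FPKM and in 15 of 28 (53.6%) under 10 FPKM. Rpl28 and Rplp2 both carry it, and Rpl28 was at 0.346 FPKM in the Null pool and 0.662 FPKM in the WT pool where Rplp2 was at 449 FPKM in the Null pool and 223 FPKM in the WT pool. The motif CCGGAAG or its complement CTTCCGG, a sequence bound by ETS factors, was in 27 of the 75 entries (36.0%) over the full 300 bases, against 8.86% of all entries. It was in 7 of 15, 11 of 32 and 9 of 28 entries of the same 3 classes, from abundant to low. TATAAA between 40 and 16 bases before the start was in 1 of the 75 entries, that of Rpl22l1, against 1.99% of all entries. The search used 1 strand for the pyrimidine run and TATAAA, some genes have several entries, and a match is a description of the letters only.

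The levels of the 84 genes did not resemble those of an equimolar set. They ranged up to 1002 FPKM in the Null pool and 457 FPKM in the WT pool. The median gene was at 26.8 FPKM in the Null pool (quartiles 2.32 and 130) and at 15.9 FPKM in the WT pool (quartiles 2.46 and 57.5). Among the 83 genes above 0, the highest was 3828 times the lowest in the Null pool and 2381 times the lowest in the WT pool. The SD of log2 FPKM was 3.29 in the Null pool and 3.10 in the WT pool.

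**Figure D1:**
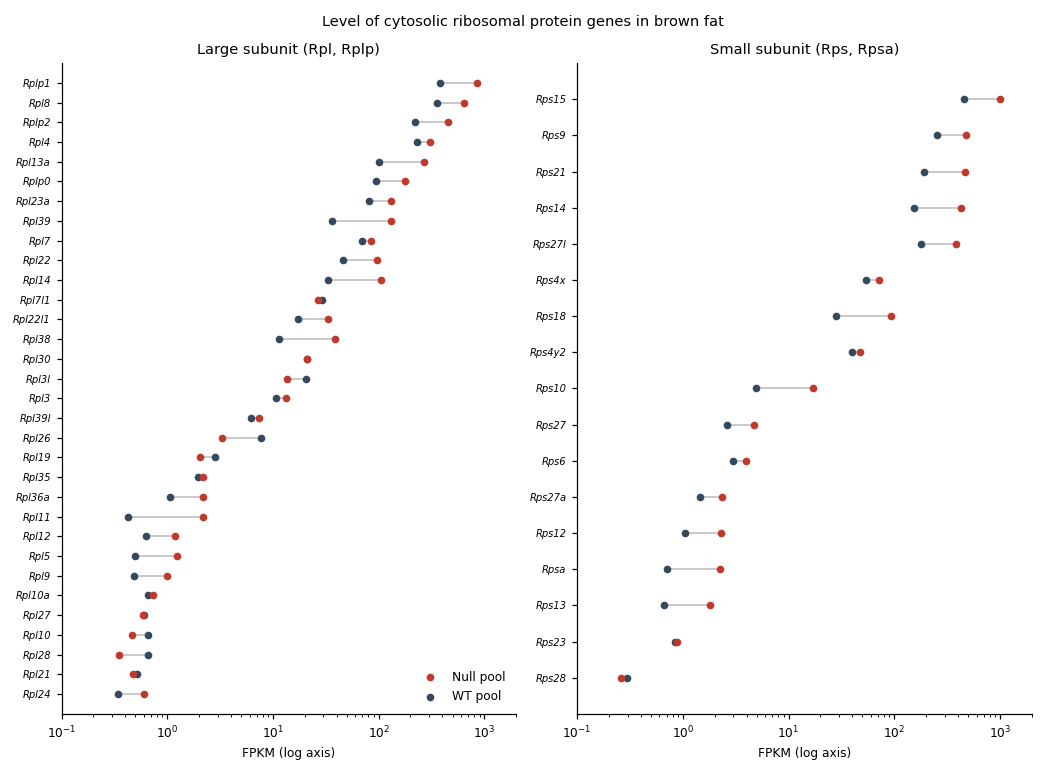
Level of cytosolic ribosomal protein genes named in the text in the Null pool (red) and the WT pool (dark blue), in FPKM on a log axis, with large-subunit genes on the left and small-subunit genes on the right, ordered by the mean of both pools. The genes drawn spread from under 1 FPKM to 1002 FPKM, and Rpl10l, listed at 0 in both pools, is not drawn.

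Genes of other large assemblies, whose subunits are not all present in a single copy, were spread less widely in the same table. The 76 genes of the mitochondrial ribosome, which translates the mitochondrial genome, had an SD of log2 FPKM of 1.59 in the Null pool and 1.50 in the WT pool. For the 26S proteasome, which degrades ubiquitin-tagged proteins, 34 genes were chosen by their Psma, Psmb, Psmc and Psmd symbols. Such a choice can include proteins outside the mature particle. Their SD of log2 FPKM was 1.40 in the Null pool and 1.32 in the WT pool. The interquartile range of the cytosolic ribosome spanned 46.3-fold in the Null pool and 22.5-fold in the WT pool. That of the mitochondrial ribosome spanned 3.38-fold in the Null pool and 3.02-fold in the WT pool, and that of the proteasome 3.13-fold in the Null pool and 2.50-fold in the WT pool. In the Null pool 11 of 84 cytosolic ribosomal protein genes were under 1 FPKM, and in the WT pool 17 were. For the mitochondrial ribosome it was 1 of 76 in each pool, and for the proteasome 0 of 34. The proteasome was added as a comparison after the values had been seen, and no test of the difference was made.

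**Figure D2:**
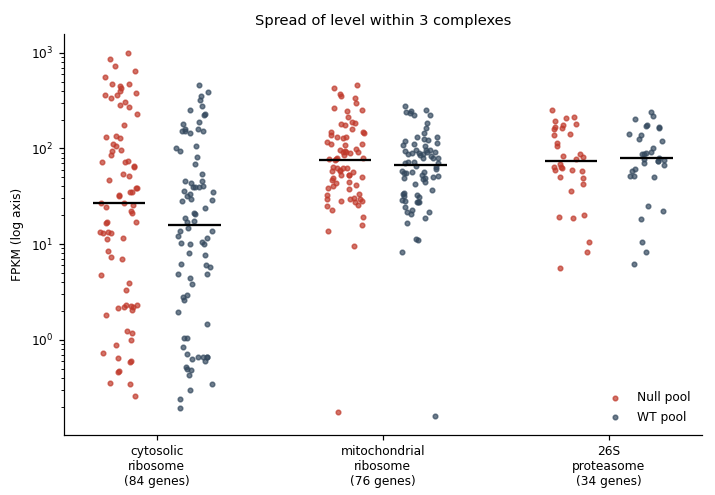
FPKM on a log axis of the genes of the cytosolic ribosome, the mitochondrial ribosome and the 26S proteasome, each as a Null pool column (red) left of a WT pool column (dark blue). Each point is 1 gene, genes were chosen by symbol, and black bars are medians over all genes of each set. The cytosolic ribosome has a long lower tail, with 17 genes under 1 FPKM in the WT pool. Rpl10l, at 0 in both pools, is counted among them but not drawn.

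The abundant end of the family held both subunits. Rps15, whose protein is needed for export of the small subunit from the nucleus, was the highest in each pool at 1002 FPKM in the Null pool and 457 FPKM in the WT pool. The large-subunit gene Rpl8, whose protein reaches towards the peptidyl transferase centre, was at 648 FPKM in the Null pool and 353 FPKM in the WT pool. Rps9, a protein of the small-subunit body, was at 473 FPKM in the Null pool and 253 FPKM in the WT pool. Also among the 10 genes with the highest mean were Rps21, at 472 FPKM in the Null pool and 189 FPKM in the WT pool, and Rps14, at 426 FPKM in the Null pool and 153 FPKM in the WT pool, with Rps27l and the stalk genes Rplp1 and Rplp2. The 10 genes with the highest mean made up 56.2% of the summed FPKM of the family in the Null pool and 54.6% in the WT pool. The whole family made up 1.80% of the column total in the Null pool and 1.01% in the WT pool.

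The P stalk, which recruits the elongation factors to the ribosome, is made of the anchor protein P0 and dimers of P1 and P2. Rplp0, the anchor, was at 177 FPKM in the Null pool and 94.7 FPKM in the WT pool. Rplp1 was at 855 FPKM in the Null pool and 385 FPKM in the WT pool, which was 4.82 times Rplp0 in the Null pool and 4.06 times in the WT pool. Rplp2 was 2.53 times Rplp0 in the Null pool and 2.35 times in the WT pool. The table also lists Rplp2-ps1, an entry named as a pseudogene of Rplp2, at 644 FPKM in the Null pool and 312 FPKM in the WT pool, above Rplp2 itself. How reads were divided between these entries is not given in the sources used here, so the level of Rplp2 is uncertain.

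At the other end, 21 genes had a mean of both pools under 10% of the family median of 22.5 FPKM. Most encode core ribosomal proteins rather than tissue-restricted relatives. Rpl10, whose protein joins the large subunit late and lies near the catalytic centre, was at 0.466 FPKM in the Null pool and 0.664 FPKM in the WT pool. Rps28 was at 0.262 FPKM in the Null pool and 0.297 FPKM in the WT pool, the lowest mean of any member above 0. Rpl5 and Rpl11, whose proteins carry 5S ribosomal RNA and restrain the p53 inhibitor MDM2 when assembly fails, were at 1.22 and 2.19 FPKM in the Null pool, against 0.492 and 0.429 FPKM in the WT pool. Rpl24, Rpl21, Rpl27, Rpl10a, Rpl9, Rps23 and Rpl12 were, like Rpl10, Rpl28, Rps28 and Rpl5, under 1 FPKM in the mean of both pools. Rps13, Rpsa, Rpl36a, Rps12, Rps27a and Rpl35, with Rpl11, had means between 1.24 and 2.08 FPKM. Rpl10l, a copy of Rpl10 without introns that is known from testis, was listed at 0 in both pools, and so were the sperm protamine and transition protein genes Prm2 and Tnp2, while Prm1 was listed at 0 in the WT pool and Tnp1 at 0 in the Null pool.

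Fau and Gnb2l1, outside the name rule, also lay at very different levels. Fau was at 7.84 FPKM in the Null pool and 5.37 FPKM in the WT pool, whereas Gnb2l1 was at 386 FPKM in the Null pool and 229 FPKM in the WT pool. Among members of known special roles, Rps27a, which encodes ubiquitin fused to a small-subunit protein, was at 2.33 FPKM in the Null pool and 1.45 FPKM in the WT pool. Rps6, the substrate of the S6 kinases, was at 3.92 FPKM in the Null pool and 2.96 FPKM in the WT pool, although the S6 kinase gene Rps6kb1 itself was at 16.6 FPKM in the Null pool and 16.2 FPKM in the WT pool.

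The same genes were low in both pools. Across the 83 genes above 0, log2 FPKM in the Null pool and in the WT pool had a Pearson correlation of 0.98 and a Spearman correlation of 0.98. Genes of a pool share their libraries and processing, so these values describe the table and carry no p. Levels went down with the number of pseudogenes that RefSeq names after a gene. The 24 genes with 5 or more named pseudogenes had a median of 13.2 FPKM in the Null pool and 8.96 FPKM in the WT pool. The 39 with 1 to 4 had a median of 24.6 FPKM in the Null pool and 12.1 FPKM in the WT pool, and the 21 with none had a median of 63.2 FPKM in the Null pool and 39.8 FPKM in the WT pool. Across the 84 genes the Spearman correlation of mean level with that number was -0.34. Rpl21 (15 named pseudogenes) and Rps12 (23) were among the lowest genes, but Rps28 with none was lower still and Rpl23a, with 13, was at 131 FPKM in the Null pool and 81.2 FPKM in the WT pool. Many pseudogenes carry other names, so the counts are incomplete, and their part in the levels was not tested.

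Between the pools, ribosomal protein genes were mostly higher in Null brown fat. Differences are given as log2((Null + 1)/(WT + 1)) of FPKM wherever the mean of both pools reached 1 FPKM, a scale that understates the change of low genes. The filter left 70 of the 84 members and 11597 genes in all. Null was above WT in 65 of the 70, against 50.6% of all genes. By 1.5-fold or more 51 members were higher, where 7.87% of all genes were, and 1 member was lower, where 6.75% of all genes were. By 2-fold or more 29 members were higher, where 2.17% of all genes were, and the same 1 member was lower, where 1.65% of all genes were. The median log2 ratio was 0.90 for the members and 0.01 for all genes. The 14 members that did not pass the filter had log2 ratios between -0.30 and 0.58, with Null above WT in 8.

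The higher level was shared by both subunits. Over all genes, 50.6% were above WT in the Null pool and 7.87% were higher by 1.5-fold or more. All 30 small-subunit genes that passed the filter were above WT in the Null pool, 25 of them by 1.5-fold or more, and their median log2 ratio was 0.94. Of 40 large-subunit genes 35 were above WT, 26 by 1.5-fold or more, with a median of 0.86. All 3 stalk genes were higher by 1.5-fold or more, with log2 ratios of 0.90 for Rplp0, 1.15 for Rplp1 and 1.01 for Rplp2. In the sum over members, large-subunit genes reached 5019 FPKM in the Null pool and 2487 FPKM in the WT pool, and small-subunit genes reached 5630 FPKM in the Null pool and 2628 FPKM in the WT pool.

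**Figure D3:**
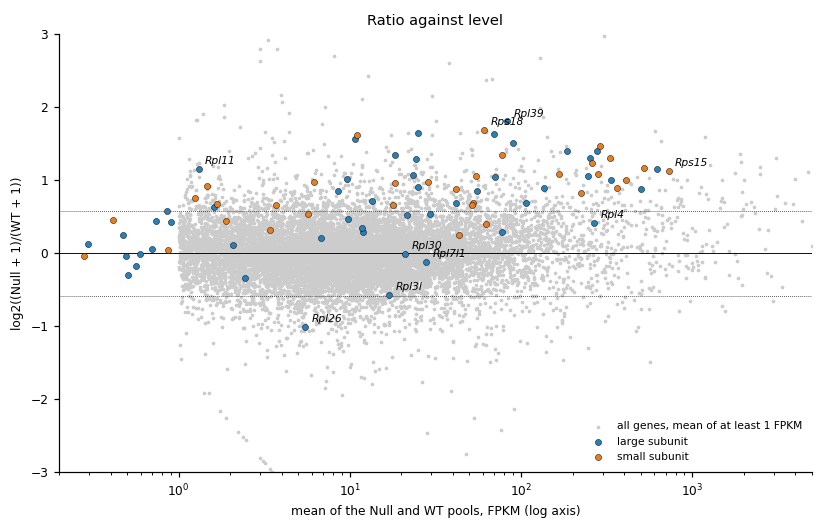
Log2 ratio of Null to WT with a pseudocount of 1 FPKM, against the mean of both pools on a log axis, for ribosomal protein genes of the large (blue) and small (orange) subunit above 0 and for every gene whose mean reached 1 FPKM (grey). Dotted lines mark 1.5-fold. Axes are cut at a log2 ratio of 3 in either direction, beyond which 66 genes lie, and at 5000 FPKM, above which 4 lie. Abundant ribosomal protein genes sit above the upper dotted line, apart from Rpl4, and Rpl26 is the lowest member.

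The ratio was higher among abundant members. All 20 members whose mean was 100 FPKM or more were above WT in the Null pool, where 65.4% of all genes of that class were. Of these 20 members 19 were higher by 1.5-fold or more, and the median log2 ratio was 1.09. In that class 22.3% of all genes were higher by 1.5-fold or more, and their median was 0.18. At 10 to 100 FPKM, 23 of 33 members were higher by 1.5-fold or more, where 7.65% of all genes were, and the median was 0.88. At 1 to 10 FPKM it was 9 of 17, where 6.10% of all genes were, and the median was 0.63. The order was less steep without the pseudocount. The median ratio of Null to WT was 2.13 at 100 FPKM or more, 1.86 at 10 to 100 FPKM, 1.81 at 1 to 10 FPKM and 1.10 under 1 FPKM. For all genes it was 1.13, 1.00, 0.99 and 1.09 in the same order. Members under 1 FPKM were thus near all genes of that class. Over the 70 members the log2 ratio and the level had a Pearson correlation of 0.41 and a Spearman correlation of 0.44, and with a pseudocount of 0.1 FPKM the Spearman correlation was 0.24. Ratio and level come from the same values, so this is a description with no p.

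The 5 highest ratios among members with a mean of at least 10 FPKM came from genes of middling level. Rpl39, which lines the exit tunnel for the nascent chain, was at 130 FPKM in the Null pool and 36.3 FPKM in the WT pool, a log2 ratio of 1.81. Rps18, a protein of the small-subunit head, was at 93.8 FPKM in the Null pool and 28.3 FPKM in the WT pool (1.70). Rpl38, which in mouse embryos is needed for translation of Hox mRNAs, was at 38.4 FPKM in the Null pool and 11.5 FPKM in the WT pool (1.65). Rpl14, whose start region is among those shown, was at 105 FPKM in the Null pool and 33.3 FPKM in the WT pool (1.64), and Rps10 was at 17.2 FPKM in the Null pool and 4.92 FPKM in the WT pool (1.62). The ratio of Rpl11 without a pseudocount was larger, at 5.09, but it rests on 2.19 FPKM in the Null pool and 0.429 FPKM in the WT pool.

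Among the 70 members that passed the filter, 5 were not higher and the others all differed in 1 direction. Over all 84 members, 10 were below WT in the Null pool. Of these Rpl28, at 0.346 FPKM in the Null pool and 0.662 FPKM in the WT pool, did not pass the filter. Its ratio without a pseudocount was 0.523. Rpl26, known in human and mouse cells as a binder of p53 mRNA, was at 3.31 FPKM in the Null pool and 7.69 FPKM in the WT pool, a log2 ratio of -1.01. It was the only member that passed the filter and was lower by 1.5-fold or more. Rpl3l was at 13.5 FPKM in the Null pool and 20.5 FPKM in the WT pool (-0.57). With a pseudocount of 0.1 FPKM its ratio was -0.60 and it too was past 1.5-fold. Rpl19 was at 2.03 FPKM in the Null pool and 2.83 FPKM in the WT pool (-0.34), Rpl7l1 at 26.7 FPKM in the Null pool and 29.1 FPKM in the WT pool (-0.12), and Rpl30 at 21.0 FPKM in the Null pool and 21.2 FPKM in the WT pool (-0.01). Rpl30 and Rpl7l1 were thus almost level between the pools. Among the lowest ratios at a mean of at least 10 FPKM were also Rps4y2 (0.25) and Rpl3 (0.29). Rpl4, a long protein of the exit tunnel, had the lowest ratio of the members over 100 FPKM, at 307 FPKM in the Null pool and 230 FPKM in the WT pool (0.42).

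Paralogs named after a ribosomal protein differed from their relatives in level, ratio or both. Rpl3l, which replaces Rpl3 in skeletal and heart muscle, was at 13.5 FPKM in the Null pool and 20.5 FPKM in the WT pool, whereas Rpl3 was at 13.2 FPKM in the Null pool and 10.6 FPKM in the WT pool. Rpl3l was therefore 1.02 times Rpl3 in the Null pool and 1.94 times in the WT pool. Skeletal muscle markers differed in the same direction as Rpl3l, with 11 of 12 lower in the Null pool, a median log2 ratio of -0.91, and sums of 2381 FPKM in the Null pool and 3444 FPKM in the WT pool. By 1.5-fold or more 8 of the 12 were lower, where 6.75% of all genes were. Of all genes, 50.6% were above WT in the Null pool. None of the 12 was listed at 0, and their part in the value of Rpl3l was not tested. In tissue RNA, fewer cells of a type and less RNA per cell cannot be told apart.

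The other pairs did not follow a single pattern. Rps27l, which is induced by p53, was at 383 FPKM in the Null pool and 179 FPKM in the WT pool, while Rps27 was at 4.76 FPKM in the Null pool and 2.63 FPKM in the WT pool, so that the paralog was 80.4 times its relative in the Null pool and 68.2 times in the WT pool. Rpl36al, outside the name rule, stood likewise above Rpl36a, at 53.1 FPKM in the Null pool and 46.1 FPKM in the WT pool where Rpl36a was at 2.17 FPKM in the Null pool and 1.05 FPKM in the WT pool. Rpl22l1 was at 32.9 FPKM in the Null pool and 17.1 FPKM in the WT pool, and Rpl22 was at 95.9 FPKM in the Null pool and 45.8 FPKM in the WT pool. Their log2 ratios were close, at 0.91 for Rpl22l1 and 1.05 for Rpl22. Rpl39l was at 7.36 FPKM in the Null pool and 6.25 FPKM in the WT pool, with a log2 ratio of 0.20 where that of Rpl39 was 1.81. Rpl7l1 had a log2 ratio of -0.12 and Rpl7 one of 0.29. Rps4y2, an entry that RefSeq now lists as the transcribed pseudogene Rps4l, was at 47.1 FPKM in the Null pool and 39.4 FPKM in the WT pool, and Rps4x at 71.3 FPKM in the Null pool and 53.6 FPKM in the WT pool. Pairs of near-identical sequence share reads, so their levels are uncertain.

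**Figure D4:**
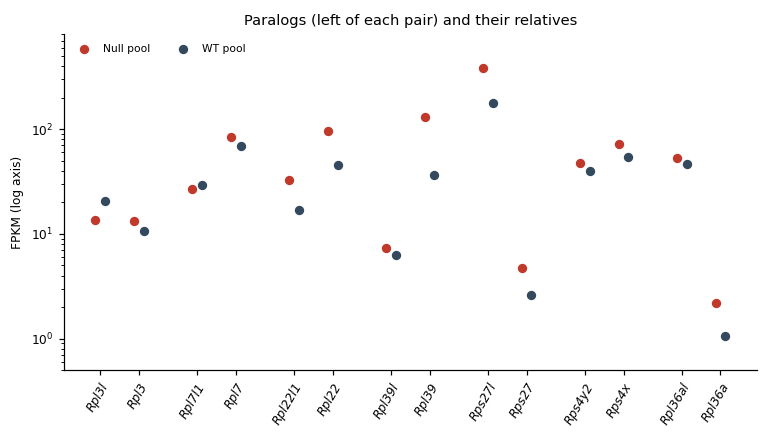
FPKM on a log axis of 7 paralogs and their relatives, paralog on the left of each pair, with the Null pool (red) left of the WT pool (dark blue). Rps27l and Rpl36al lie far above Rps27 and Rpl36a, and Rpl3l and Rpl7l1 are the paralogs with the WT pool above the Null pool.

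The authors' table itself sets some members apart. Its first 727 rows run from the highest to the lowest ratio of Null to WT, and the rows after them are in alphabetical order apart from 10 places. How the first rows were picked is not given in the sources used here. They hold 331 genes higher and 396 lower in the Null pool, with ratios of at least 1.64 or at most 0.614 and no value of 0. Of the 84 members 38 (45.2%) are among them, all higher in the Null pool, and they make up 11.5% of the 331 higher genes, while the 331 are 1.47% of all rows. The 38 members had a median log2 ratio of 1.11. A ratio of at least 1.64 was also reached by 13 members outside these rows, 9 of them with a mean under 3 FPKM, such as Rpl11 and Rps13. Of all 22552 genes, 1705 outside these rows reached that ratio with both values above 0. Rpl22l1, the most abundant of the 13, had a ratio of 1.93.

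Genes that work with the ribosome showed different values by role. Over all genes, 50.6% were above WT in the Null pool and 7.87% were higher by 1.5-fold or more. All 8 host genes of small nucleolar RNAs, which give rise to the guides for ribosomal RNA modification and often begin with the same pyrimidine stretch, were above WT in the Null pool, 7 by 1.5-fold or more, and their median log2 ratio was 0.89. Snhg8 was at 24.2 FPKM in the Null pool and 8.21 FPKM in the WT pool, and Gas5 at 12.5 FPKM in the Null pool and 6.82 FPKM in the WT pool. Of 19 translation factors and related genes 14 were above WT, 5 by 1.5-fold or more, with a median of 0.33. Among these Eef1b2, a subunit of the exchange factor for elongation factor 1, was at 134 FPKM in the Null pool and 77.5 FPKM in the WT pool (0.78), and Eef1a1, which brings tRNA to the ribosome, at 668 FPKM in the Null pool and 532 FPKM in the WT pool (0.33). Eef2, the translocase, was at 313 FPKM in the Null pool and 385 FPKM in the WT pool (-0.30).

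Genes for making ribosomes did not share the direction. As a background, 50.6% of all genes were above WT in the Null pool. By 1.5-fold or more, 7.87% of all genes were higher and 6.75% were lower. Of 27 genes of ribosome assembly and ribosomal RNA synthesis 10 were above WT and 17 below in the Null pool, none by 1.5-fold, and the median log2 ratio was -0.04. The nucleolar protein gene Ncl was at 20.6 FPKM in the Null pool and 21.7 FPKM in the WT pool, and Ubtf, a factor for transcription by RNA polymerase I, at 27.3 FPKM in the Null pool and 30.2 FPKM in the WT pool. For the mitochondrial ribosome the median log2 ratio was 0.21, with 11 of 75 tested genes higher by 1.5-fold or more and 0 lower. The proteasome had a median of -0.04 with 0 of 34 past 1.5-fold in either direction.

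**Figure D5:**
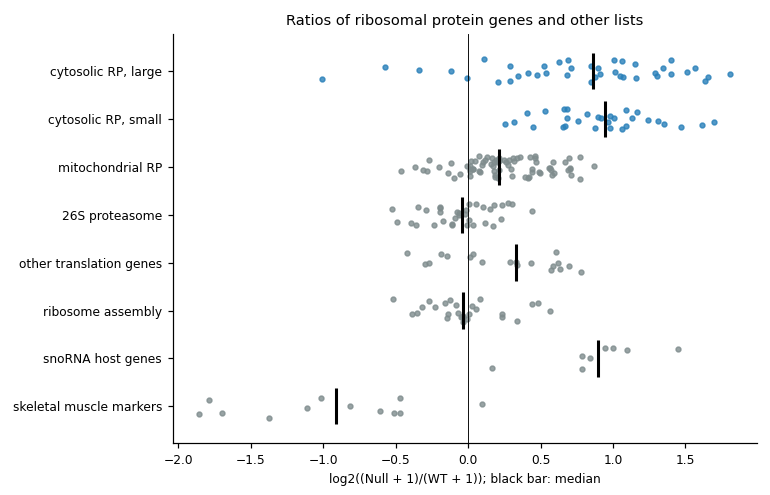
Log2 ratio of Null to WT with a pseudocount of 1 FPKM by list, for genes whose mean reached 1 FPKM. Points are genes and black bars are medians. The medians of ribosomal protein genes of both subunits and of snoRNA host genes lie near 0.9, those of the proteasome and of ribosome assembly genes near 0, and that of skeletal muscle markers at -0.91.

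Among regulators of ribosomal protein mRNAs, single genes were past 1.5-fold in either direction. Of 12 tested genes 2 were higher by 1.5-fold or more in the Null pool, where 7.87% of all genes were, and 3 were lower, where 6.75% of all genes were. Myc, a transcription factor that raises ribosomal protein gene expression, was at 6.38 FPKM in the Null pool and 1.99 FPKM in the WT pool (1.30), and Cnbp, which binds pyrimidine-rich starts, was at 337 FPKM in the Null pool and 209 FPKM in the WT pool (0.69). Eif4ebp2, an inhibitor of cap-dependent translation, was at 21.1 FPKM in the Null pool and 58.7 FPKM in the WT pool (-1.44). Mtor was at 18.7 FPKM in the Null pool and 32.5 FPKM in the WT pool (-0.76), and Larp1 at 9.45 FPKM in the Null pool and 14.8 FPKM in the WT pool (-0.60). Eif4ebp1, the most abundant regulator in the WT pool, was at 273 FPKM in the Null pool and 288 FPKM in the WT pool (-0.07).

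Most blood and immune cell markers were also higher in the Null pool, and such cells hold ribosomal protein mRNAs too. Over all genes whose mean reached 1 FPKM, 50.6% were above WT. Macrophage markers summed to 158 FPKM in the Null pool and 103 FPKM in the WT pool, with 7 of 8 higher and none at 0. The other one, Csf1r, was at 5.16 FPKM in the Null pool and 5.18 FPKM in the WT pool. All 9 lymphocyte markers were above WT, 6 of them with a mean under 1 FPKM, with sums of 41.4 FPKM in the Null pool and 14.6 FPKM in the WT pool. Of these sums Cd52 alone gave 33.6 FPKM in the Null pool and 11.8 FPKM in the WT pool. In the Null pool 5 lymphocyte markers and in the WT pool 7 were under 1 FPKM, and none was at 0. Of 6 red cell markers 5 were above WT and none was at 0, with sums of 469 FPKM in the Null pool and 158 FPKM in the WT pool. Their part in the ratios of the ribosomal protein genes was not tested. The column totals also differed, by a factor of 1.16. With both columns scaled to the same total, the median of all genes moved to -0.18 and that of the members to 0.68, which is 0.86 above all genes. In that setting 42 of 70 members were higher by 1.5-fold or more, where 4.04% of all genes were, and 2 were lower, where 14.0% of all genes were. Higher genes then made up 22.4% of all genes past 1.5-fold, against 53.8% with the deposited values.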

How the data were processed

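The authors deposited FPKM values in a table whose headers name a single Null and a single WT column, so the 3 libraries of each genotype were combined before deposit, by a step not described in the labels or headers. Per the submitters' processing notes, the build was mm9 and the tools named were TopHat, BWA, CASAVA, DESeq and edgeR. Neither the role nor the version of each tool, nor the annotation or the rule for multi-mapped reads, is given in the sources used here. Depth is unknown, and no interval could be computed. The microRNA table holds no ribosomal protein gene and was not used here.

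From the FPKM values, log2((Null + 1)/(WT + 1)) was computed where the mean of both columns reached 1 FPKM, with Python 3.11.15, pandas 2.3.3 and scipy 1.17.1. The code for the 1.5-fold rule was tested on simulated data without noise, which checks the arithmetic only. No test between genotypes was possible. Members, gene lists and comparisons were chosen with earlier results of these data known. Members named in the text were, by rule, those listed at 0, the 10 with the highest mean, those with a mean under 10% of the member median, the 5 highest and 5 lowest ratios at a mean of at least 10 FPKM, paralog pairs, the stalk genes, Rps6 and Rps27a. Some genes that this rule takes are not reported here, and others were named after their values were seen. Start regions (RefSeq, GRCm38.p6) were matched by symbol or synonym. Protein lengths were not analysed here. Alternatives varied the pseudocount, the filter, the scaling and the membership.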

Additional observations from a re-analysis of the deposited data

How the results depend on the processing

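No paired analysis was possible because each genotype has a single column, and leaving out a library was not possible for the same reason. The relation of ratio to protein length was not run, since no protein lengths were used here. The count of members higher in Null by 1.5-fold or more, 51 of 70, stayed within 1.5 times under each alternative run. It ranged from 37 of 70 with a pseudocount of 10 FPKM to 53 of 70 with 0.1 FPKM. Over all genes the share higher was 3.44% with 10 FPKM and 10.3% with 0.1 FPKM, against 7.87% as reported. The members tested numbered from 53 at a mean of at least 10 FPKM to 84 with no filter. The members lower by 1.5-fold or more numbered 2 with a pseudocount of 0.1 FPKM or both columns scaled to the same total (Rpl26 and Rpl3l), 0 with a pseudocount of 10 FPKM and 0 at a mean of at least 10 FPKM, against 1 as reported, Rpl26. Over all genes the share lower was 9.15% with a pseudocount of 0.1 FPKM and 14.0% with equal totals. It was 1.91% with a pseudocount of 10 FPKM and 6.52% at a mean of at least 10 FPKM, against 6.75% as reported. The median log2 ratio of 0.90 was 0.99 with a pseudocount of 0.1 FPKM, 0.66 with 10 FPKM, 0.74 with no filter, 0.97 at a mean of at least 5 FPKM, 1.00 at a mean of at least 10 FPKM, 0.68 with equal totals, 0.80 with quantile normalization, 0.91 without paralogs and 0.88 with 4 subunit genes outside the name rule added. In these settings the median of all genes lay between -0.18, with equal totals, and 0.02, at a mean of at least 10 FPKM. With equal totals the member median was 0.86 above that of all genes, against 0.89 as reported. The SD of log2 level was 3.29 in the Null pool and 3.10 in the WT pool as reported. At a mean of at least 5 FPKM it was 2.09 in the Null pool and 1.92 in the WT pool, and at a mean of at least 10 FPKM 1.84 in the Null pool and 1.75 in the WT pool. With quantile normalization it was 3.78 in the Null pool and 3.11 in the WT pool, without paralogs 3.38 in the Null pool and 3.17 in the WT pool, and with the 4 genes added 3.30 in the Null pool and 3.11 in the WT pool. The filters remove low members by construction. The Spearman correlation of ratio and level, 0.44, was 0.24 with a pseudocount of 0.1 FPKM, 0.39 at a mean of at least 5 FPKM, 0.29 at a mean of at least 10 FPKM and 0.43 without paralogs. The filter at 10 FPKM was chosen after seeing the data. Causes of these shifts beyond those stated were not tested.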

Other observations

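The S6 kinase genes, which the name rule leaves out, had counts near those of all genes. Of 8 tested, 3 were above WT in the Null pool, where 50.6% of all genes were. By 1.5-fold or more 0 were higher, where 7.87% of all genes were, and 1 was lower, where 6.75% of all genes were, with a median log2 ratio of -0.14. The lower one was Rps6ka3, at 9.86 FPKM in the Null pool and 18.1 FPKM in the WT pool. Entries named as ribosomal protein pseudogenes had levels from near 0 to those of abundant members. Besides Rplp2-ps1, Rps19-ps3 was at 5.78 FPKM in the Null pool and 1.27 FPKM in the WT pool, and Rpl34-ps1 was at 0.00261 FPKM in the Null pool and 0.00391 FPKM in the WT pool.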
